A study of Homo sapiens with 4 samples.

Results

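NEAT1, the long noncoding RNA that forms the core of paraspeckles, its neighbour MALAT1 and the main protein partners of NEAT1 were followed through the RNA sequencing of a bladder cancer study. The 8 members are the rows NEAT1, NEAT1_1, MALAT1, NONO, SFPQ, PSPC1, RBM14 and HNRNPK, out of 32973 rows in the deposited table. They were taken by name, and they were picked because NEAT1 and MALAT1 had lower values in the BCUC-1 libraries. All 8 names were found in the table.

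BCUC-1 is a circular RNA, hsa_circ_0001361, made from FNDC3B. Its overexpression plasmid, or the empty vector, was stably transfected into T24T and UMUC3 cells, which are human bladder cancer lines kept in RPMI-1640 medium with serum and antibiotics. The aim given for the experiment was a screen for genes downstream of BCUC-1. There was 1 library of total RNA from each of the 4 kinds of cell (each line with vector and with BCUC-1), so the effect of BCUC-1 within a line has no replicate, and a clone or culture difference cannot be told apart from it. The labels do not say whether the transfected cells were a clone or a pool.

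Paraspeckles are nuclear bodies built on the long form of NEAT1. The proteins NONO, SFPQ and PSPC1 bind along that RNA, and RBM14 helps to bring the particles together. HNRNPK favours the long form by hindering the use of the early poly(A) site, where the cleavage factor CFIm acts in the opposite way to give the short form. MALAT1 is made from the same stretch of chromosome, stays in the nucleus and gathers in nuclear speckles beside many splicing factors. MALAT1 and long NEAT1 are ended by RNase P, which cuts at a tRNA-like fold in place of the usual poly(A) tail, and the fold released from MALAT1 is the small RNA mascRNA.

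The row named NEAT1_1 is not the short NEAT1 transcript, which often bears the same name. It covers 120 bases near the 5′ end of NEAT1, and rows NEAT1_2 and NEAT1_3 of 105 and 159 bases lie just after it. The windows are shown because the 3 of them behaved unlike the NEAT1 row in UMUC3. All sequences here are from GENCODE 29 transcripts on GRCh38, forward strand of chromosome 11, written 5′ to 3′. NEAT1_1 spans chr11:65423273-65423392, NEAT1_2 spans chr11:65423638-65423742 and NEAT1_3 spans chr11:65423960-65424118. Capitals mark the bases of one intron in each window: in NEAT1_1 the first bases of the intron of a short transcript, in NEAT1_2 the first bases of a later intron of another short transcript, and in NEAT1_3 the last bases of that later intron. Other short transcripts also splice out the first bases of NEAT1_1, which are left in lower case.
NEAT1_1: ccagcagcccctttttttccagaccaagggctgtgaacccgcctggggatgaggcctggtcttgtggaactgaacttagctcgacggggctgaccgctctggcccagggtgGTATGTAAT
NEAT1_2: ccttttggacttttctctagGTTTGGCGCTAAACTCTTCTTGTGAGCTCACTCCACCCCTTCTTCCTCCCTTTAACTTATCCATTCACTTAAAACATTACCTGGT
NEAT1_3: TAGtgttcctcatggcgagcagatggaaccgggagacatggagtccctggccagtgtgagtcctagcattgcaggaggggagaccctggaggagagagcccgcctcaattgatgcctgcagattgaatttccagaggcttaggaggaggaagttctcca

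The unspliced long NEAT1 transcript runs from 65422798 to 65445540, 22743 bases in a single exon, while a short spliced one, with exons from 65422774 to 65423383 and from 65423627 on, ends at 65426457. The 200 bases around the ends of the short transcripts are shown because the choice between short and long NEAT1 is made there. Capitals mark AATAAA, the poly(A) signal, and TGTA, the letters that CFIm binds.
End of the short NEAT1 transcripts, chr11:65426357-65426556: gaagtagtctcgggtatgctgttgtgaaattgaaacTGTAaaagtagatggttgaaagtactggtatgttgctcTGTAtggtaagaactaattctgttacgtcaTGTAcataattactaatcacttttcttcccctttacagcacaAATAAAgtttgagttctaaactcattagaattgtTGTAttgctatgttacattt
AATAAA was found 1 time on the sense strand, starting at 65426503 (46 bases after that end), and 0 times on the other strand. Of 67950 stretches of 200 bases in lincRNA transcripts, 11.3% hold it on the sense strand and 20.1% on either. TGTA was found 4 times on the sense strand, 3 of them ahead of AATAAA, and 3 times on the other strand. At least 1 sense TGTA is in 45.9% of the same stretches, and 1.22% of them hold as many as 4. Within the long NEAT1 transcript itself 7 of 113 stretches hold as many. No match overlaps another of those marked, and a match is a description and not a site that was shown to be used.

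The end of MALAT1 is shown because the mascRNA row of the table lies in it. Capitals mark the 57 bases of mascRNA, and the run of A just before them is the end of the mature MALAT1.
3′ end of MALAT1, chr11:65506017-65506173: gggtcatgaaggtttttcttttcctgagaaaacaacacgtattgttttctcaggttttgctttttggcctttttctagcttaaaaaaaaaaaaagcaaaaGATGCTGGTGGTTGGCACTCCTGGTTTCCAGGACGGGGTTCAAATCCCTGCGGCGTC

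The reads assigned to genes, recovered from the deposited values, numbered between 22730112 and 26497894 a library. FNDC3B, the host gene, stood between 5.40 and 6.27 RPKM (reads per kilobase of gene, scaled to the depth of the library) in the 4 libraries, and this row does not measure the circle. Of 6 epithelial markers, KRT8, KRT18 and KRT7 were above 1 RPKM in every library, and EPCAM, CDH1 and KRT19 were below it in every library. Their summed level was 242 and 260 RPKM in T24T (vector and BCUC-1) and 55.9 and 58.3 RPKM in UMUC3. The mesenchymal markers VIM, CDH2 and FN1, with VIM far the highest, summed to 91.3 and 95.2 RPKM in T24T and to 240 and 274 RPKM in UMUC3. Of 7 urothelial differentiation markers, 5 were below 1 RPKM in all 4 libraries, so the labelled bladder origin shows little in them. Leukocyte markers summed to at most 0.14 RPKM (2 of 4 listed genes analysed) and endothelial markers to at most 0.0705 RPKM.

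NEAT1 set the lines apart. Its row (chromosome 11, 65422774 to 65445540, forward strand, 22767 bases) stood at 30.9 RPKM (vector) and 22.7 RPKM (BCUC-1) in T24T, and at 91.5 RPKM (vector) and 87.2 RPKM (BCUC-1) in UMUC3. Every set of 4 values that follows has this order: T24T with vector and BCUC-1, then UMUC3 with vector and BCUC-1. Both UMUC3 libraries were far above both T24T libraries, and within each line the BCUC-1 library was the lower one. NEAT1_1 stood at 932, 683, 2499.6 and 2755 RPKM. Here too both UMUC3 libraries were above both T24T libraries, but the highest of the 4 was UMUC3 BCUC-1. MALAT1 (chromosome 11, 65497762 to 65506516, forward strand, 8755 bases) stood at 68.1, 55.8, 74.7 and 66.0 RPKM. For MALAT1 the lines overlapped, since T24T vector was above UMUC3 BCUC-1. Per base, the NEAT1 row was thus lower than MALAT1 in T24T (0.454 and 0.408 times MALAT1 in vector and BCUC-1) and higher in UMUC3 (1.22 and 1.32 times). The NEAT1 row holds the long transcript and the short ones, which cover only its 5′ part. Its level per base is thus an average over both forms, which were not separated.

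Among the proteins that bind along NEAT1, the mRNA of NONO (chromosome X, 71283192 to 71301168) stood at 214, 215, 207 and 216 RPKM. SFPQ (chromosome 1, 35176378 to 35193148, reverse strand), which pairs with NONO, stood at 171, 164, 136 and 126 RPKM. PSPC1 (chromosome 13, 19674752 to 19783019, reverse strand), the third protein of that family, was far scarcer at 23.9, 24.8, 16.8 and 16.7 RPKM. NONO was therefore between 8.67 and 12.9 times as abundant as PSPC1 per base of transcript, with the wider gap in UMUC3. RBM14 (chromosome 11, 66616582 to 66627347, forward strand) stood at 21.5, 21.6, 15.5 and 17.4 RPKM. HNRNPK (chromosome 9, 83968083 to 83980616, reverse strand) stood at 193, 196, 181 and 181 RPKM. The T24T libraries were the higher ones for SFPQ, PSPC1, RBM14 and HNRNPK, while the NONO values of the 2 lines overlapped. Nothing is read from that, since 70.4% of all rows passed the test between the lines given below, and HNRNPK did not. The share of all rows whose values do not overlap between the lines was not counted.

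In order of level per base, and with the short NEAT1_1 window left aside, NONO and HNRNPK led in every library and SFPQ came after them. NEAT1 and MALAT1 lay between SFPQ and the pair of PSPC1 and RBM14 in each line, apart from T24T BCUC-1, where NEAT1 (22.7 RPKM) lay between PSPC1 (24.8 RPKM) and RBM14 (21.6 RPKM). The 95% counting intervals of PSPC1 and RBM14 overlapped in UMUC3 (16.1 to 17.6 and 14.7 to 16.3 RPKM with vector, 16.0 to 17.5 and 16.5 to 18.3 RPKM with BCUC-1), so those neighbours could not be ordered there. NEAT1 and RBM14 overlapped likewise in T24T BCUC-1 (22.3 to 23.2 and 20.7 to 22.6 RPKM).

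**Figure D1:**
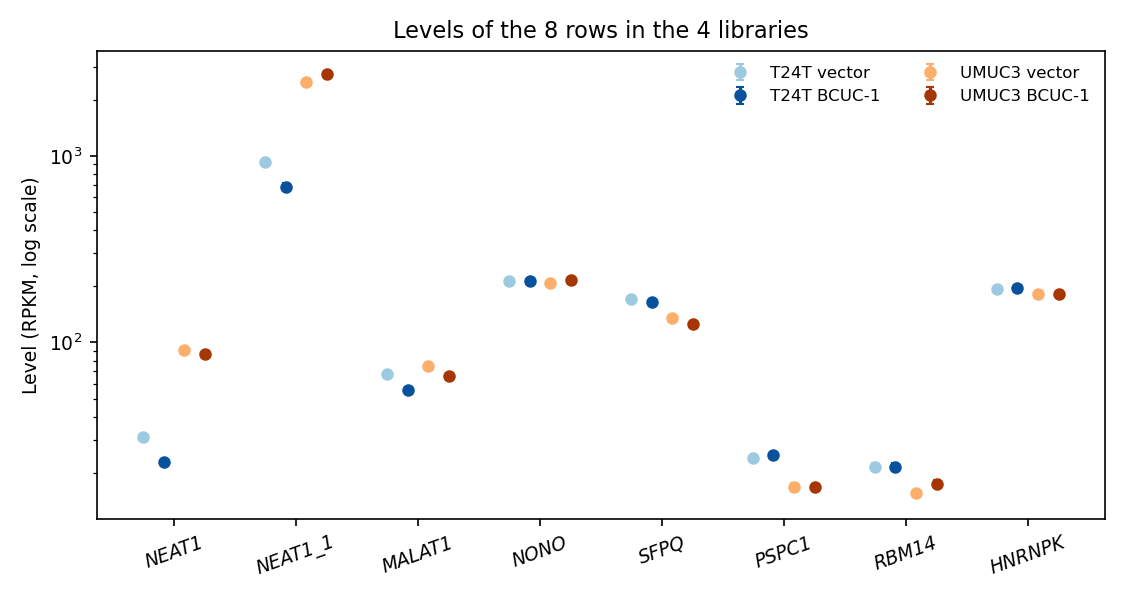
Level of each of the 8 rows (RPKM, log scale) in the 4 libraries; each point is 1 library and the bars are exact 95% counting intervals, mostly smaller than the points. NEAT1 and NEAT1_1 are higher in both UMUC3 libraries than in both T24T libraries, and the 5 protein genes lie close together across libraries.

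Against the vector library of the same line, the BCUC-1 library was lower for NEAT1, NEAT1_1 and MALAT1 in T24T, and for NEAT1 and MALAT1 but not NEAT1_1 in UMUC3. Because the members were chosen from this comparison, its values are a description without a test. In T24T the NEAT1 level with BCUC-1 was 0.735 times the vector level (95% counting interval 0.718 to 0.753), a log2 difference of −0.44. NEAT1_1 was at 0.733 times (0.691 to 0.777) and MALAT1 at 0.819 times (0.799 to 0.839). These 3 rows were 1.2-fold or more lower, as were 72 of the 7683 rows with at least 1000 reads in the T24T pair (0.937%), and nothing is read from that because the choice used it. Only 4 of those rows, NEAT1_1 among them, had a lower log2 difference than NEAT1, and 49 had a lower one than MALAT1. MALAT1 was the member just inside the 1.2-fold bound (log2 of −0.29 against 0.263) and SFPQ the one just outside (−0.063). With the libraries scaled to equal medians MALAT1 came to −0.26, outside the bound.

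The 5 protein genes stayed near their vector level in T24T. SFPQ was at 0.957 times the vector level (0.942 to 0.973), NONO at 1.00 (0.988 to 1.02), RBM14 at 1.00 (0.944 to 1.07), HNRNPK at 1.02 (1.00 to 1.04) and PSPC1 at 1.04 (0.982 to 1.09). Their median log2 difference was 0.0071, against −0.006 over all rows with enough reads, and the share of all such rows that were 1.2-fold higher was 0.13%. The 3 RNA rows were thus below all 5 protein genes, an order that the choice of NEAT1 and MALAT1 favoured in advance. In bulk RNA a smaller number of cells holding a transcript and less of it per cell cannot be told apart.

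In UMUC3 the differences of NEAT1, NEAT1_1 and MALAT1 were smaller than in T24T, while those of SFPQ, NONO and RBM14 were larger. None of the 8 members was 1.2-fold lower (0 of 8) or higher, where 4.39% of 7472 rows were lower and 4.75% higher by that much. NEAT1 with BCUC-1 was at 0.953 times the vector level (0.941 to 0.965), MALAT1 at 0.884 times (0.864 to 0.904) and NEAT1_1 at 1.10 times (1.07 to 1.14). Of all rows with enough reads, 2197 had a lower log2 difference than NEAT1 and 849 a lower one than MALAT1, so MALAT1 and not NEAT1 was the more displaced RNA in this line. SFPQ was at 0.925 times (0.908 to 0.942), PSPC1 at 0.993 (0.933 to 1.06), HNRNPK at 1.00 (0.982 to 1.02), NONO at 1.04 (1.02 to 1.06) and RBM14 at 1.12 (1.05 to 1.203). SFPQ was the only protein gene whose interval lay below 1 in both lines.

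The GC content of transcripts moved with the UMUC3 comparison. Rows of the same GC content as MALAT1 (40.3%) had a median log2 difference of −0.083 in UMUC3, and MALAT1 itself went from −0.18 to −0.075 once that trend was taken out. RBM14, of 59.4% GC, went from 0.17 to 0.042 and NEAT1, of 44.1% GC, from −0.07 to −0.036. SFPQ instead went from −0.11 to −0.14. In T24T the trend was small, and NEAT1 (−0.45) and MALAT1 (−0.28) kept their values without it. The part of sequencing bias in the trend was not tested.

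**Figure D2:**
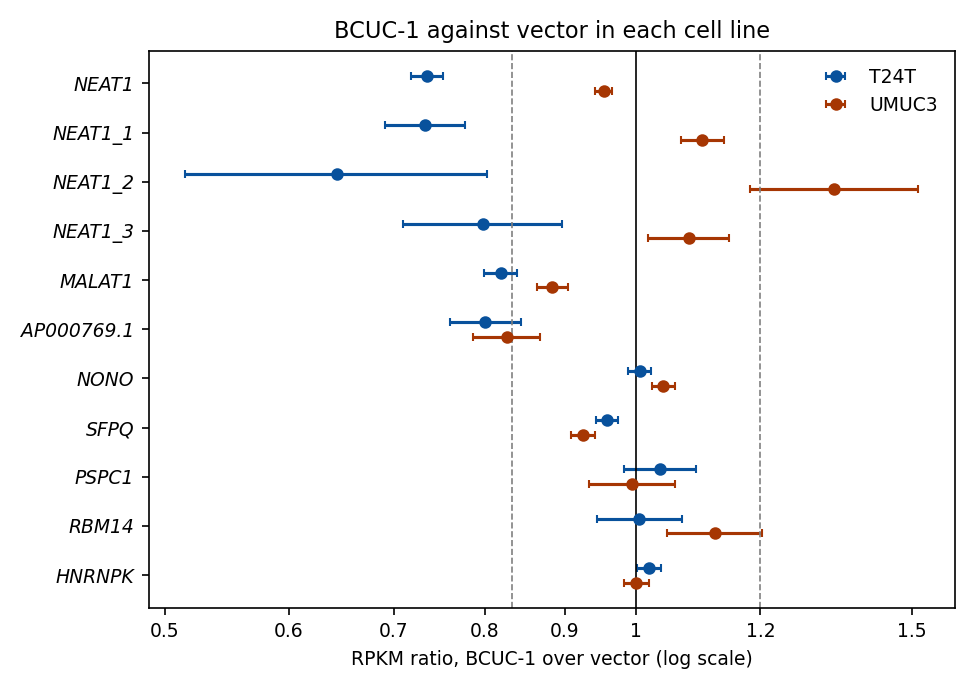
Level in the BCUC-1 library over the level in the vector library of the same line (log scale), for the 8 rows and 3 others inside NEAT1 and MALAT1; each point is 1 ratio of 2 libraries, bars are 95% counting intervals, which hold no biological spread, and dashed lines mark 1.2-fold. NEAT1, NEAT1_1 and MALAT1 lie at 0.735, 0.733 and 0.819 in T24T and at 0.953, 1.10 and 0.884 in UMUC3.

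Within NEAT1 the 5′ windows and the rest of the transcript went separate ways in UMUC3. NEAT1_2 had 212, 136, 484 and 555 reads, or 85.3, 54.9, 174 and 233 RPKM. NEAT1_3 had 648, 515, 2268 and 2101 reads, or 172, 137, 538 and 581 RPKM. All 3 windows were lower with BCUC-1 in T24T and higher with BCUC-1 in UMUC3. NEAT1_2 was at 0.644 times the vector level in T24T (0.515 to 0.802) and 1.34 times in UMUC3 (1.18 to 1.51). NEAT1_3 was at 0.798 times (0.709 to 0.897) and 1.08 times (1.02 to 1.15).

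When the reads of the 3 windows were taken out of the NEAT1 row, a step chosen after seeing the data, the remaining 22383 bases stood at 24.8, 18.2, 75.0 and 68.7 RPKM. This remainder was at 0.734 times the vector level in T24T (0.715 to 0.754), the same as its windows together (0.739, 0.703 to 0.778). In UMUC3 it was at 0.916 times (0.903 to 0.928), while its windows together were at 1.11 times (1.08 to 1.14), and those intervals did not overlap. The step takes it that a read of a window was also counted for the NEAT1 row.

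NEAT1_1 took a large share of the reads of the NEAT1 row for its 120 bases. The share was 15.9% (Clopper-Pearson 95% interval 15.3 to 16.4%) with vector and 15.8% (15.2 to 16.5%) with BCUC-1 in T24T. In UMUC3 it was 14.4% (14.1 to 14.7%) with vector and 16.7% (16.3 to 17.0%) with BCUC-1. The 2 T24T shares overlapped, and the 2 UMUC3 shares did not. Per base the window was between 27.3 and 31.6 times the level of the whole row. A read that only touches the edge of a window counts in full, so the RPKM of rows this short is raised over that of long ones, and the read length is not given in the sources used here. The window also lies mostly within an exon of a short transcript as well as in the long one. The part of each in its level was not tested.

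The windows differ in base composition. NEAT1_1 holds 59.2% GC, NEAT1_3 56.0% and NEAT1_2 42.9%. Rows of the GC content of NEAT1_1 had a median log2 difference of 0.14 in UMUC3, near that of NEAT1_1 (0.14). Rows like NEAT1_3 had 0.13 against 0.11 for NEAT1_3. These are unlike measures, since a window's GC is that of its own bases and the other rows were placed by their longest transcript. The whole long NEAT1 transcript (44.1% GC) fell among rows with a median of −0.013, and the part of GC in the window values was not tested. Rows of the GC content of NEAT1_2 had a median of −0.036, against 0.42 for NEAT1_2.

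**Figure D3:**
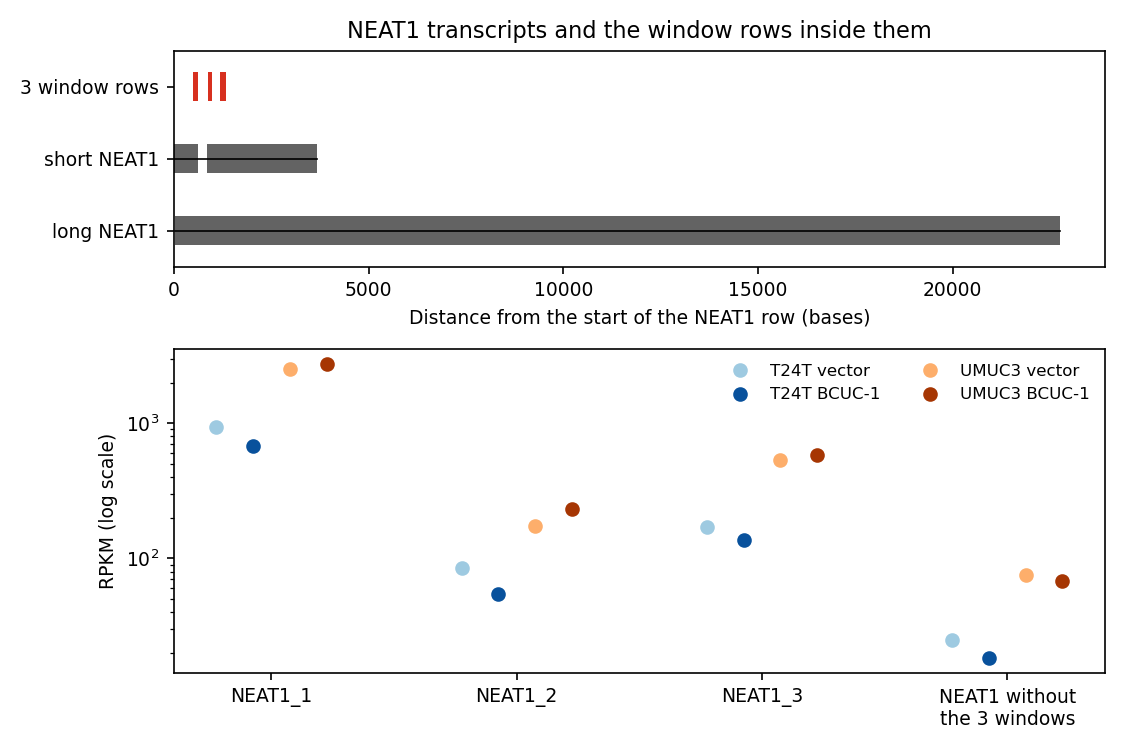
Top, exons of the long and short NEAT1 transcripts and the 3 window rows, drawn to scale by distance from the start of the NEAT1 row (bases). Bottom, RPKM (log scale) of each window and of the NEAT1 row without them in the 4 libraries, each point 1 library; in UMUC3 the windows are higher with BCUC-1 (NEAT1_2 at 233 against 174) and the remainder is lower (68.7 against 75.0).

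Other rows in the spans of the 2 RNAs followed MALAT1 in part. AP000769.1, annotated on the opposite strand inside MALAT1 (65502034 to 65503622), stood at 85.2, 68.3, 93.0 and 76.8 RPKM, at 0.801 times the vector level in T24T (0.76 to 0.844) and 0.826 times in UMUC3 (0.787 to 0.868). Its reads equalled between 21.1 and 22.7% of those of MALAT1, and as the strand of the counting is not given, reads of the 2 cannot be told apart. AP000769.7, also on the opposite strand, had 2 reads in T24T vector and 0 in the other libraries, where a count of 0 allows up to 3 reads. The row mascRNA-menRNA adds up the 58 bases right after NEAT1 (65445541 to 65445598) and the 57 capital bases in the MALAT1 end shown above. It had 56, 31, 53 and 36 reads, at 0.556 times the vector level in T24T (0.346 to 0.877) and 0.792 times in UMUC3 (0.504 to 1.23). The T24T interval lay below 1, and in UMUC3 a difference was not detectable at this depth.

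The difference between the lines was not used to choose the members and was tested. With limma on log2(RPKM + 1), 2 libraries a line and treatment in the model, 6 of the 8 members passed a Benjamini-Hochberg adjusted p of 0.05, 3 in each direction. NEAT1 and its window NEAT1_1 both count among the 3 higher in UMUC3, although they are not separate genes. Of all 15415 rows tested 70.4% passed, 40.8% higher in T24T and 29.6% higher in UMUC3, so a call is the usual case and the share among the members is near it. The p-values rest on 1 residual degree of freedom, which is how far the BCUC-1 difference of a row differed between the lines. That spread was moderated across rows, and it is not a spread between cultures.

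NEAT1 was 3.33-fold higher in UMUC3 by mean RPKM, with a log2 difference of T24T minus UMUC3 of −1.71 (SE 0.0943, 95% interval −1.94 to −1.49, limma adjusted p = 1.27e-05). Only 922 of the 15415 rows (5.98%) had a larger difference. NEAT1_1 differed by −1.72 (SE 0.137, −2.05 to −1.39, limma adjusted p = 6.04e-05), and NEAT1_2 and NEAT1_3 by −1.54 and −1.86 (limma adjusted p = 0.000692 and 1.45e-05). NEAT1 and NEAT1_1 passed in all 12 fits, the one given and those with other settings. Without the 3 windows NEAT1 was 3.02-fold higher in UMUC3 among the vector libraries and 3.77-fold higher among the BCUC-1 libraries, so the gap between the lines was there outside the windows too.

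MALAT1 showed a small difference that did not hold. It was −0.19 (SE 0.0654, −0.34 to −0.03, limma adjusted p = 0.0396), and it passed in 5 of 12 fits. It missed the threshold when any 1 of the 4 libraries was left out, and ranged from −0.044 without T24T BCUC-1 to −0.33 without T24T vector, with the highest adjusted p over the settings at 0.765. The mascRNA-menRNA row differed by −0.01 (limma adjusted p = 0.945).

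SFPQ, PSPC1 and RBM14 were higher in T24T. PSPC1 differed by 0.51 (SE 0.0704, 0.34 to 0.68, limma adjusted p = 0.00069) and passed in 12 of 12 fits. SFPQ differed by 0.36 (SE 0.0621, 0.21 to 0.51, limma adjusted p = 0.00202) and missed the threshold without T24T vector (adjusted p = 0.0621). RBM14 differed by 0.37 (SE 0.0762, 0.19 to 0.56, limma adjusted p = 0.00427) and missed it without T24T vector (0.0638) or T24T BCUC-1 (0.0651). These genes thus went the opposite way to NEAT1 between the lines.

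HNRNPK and NONO were not separated. HNRNPK differed by 0.10 (−0.05 to 0.25, limma adjusted p = 0.186) and NONO by 0.02 (−0.13 to 0.17, limma adjusted p = 0.799). The interval of HNRNPK reaches into that of SFPQ, and neither interval shows the lines to be alike. Under quantile normalization both passed as higher in T24T, at 0.29 and 0.23, while the NONO difference turned to −0.08 with equal medians. The median of all rows was itself at 0.102, and at 0.0195 with equal medians.

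**Figure D4:**
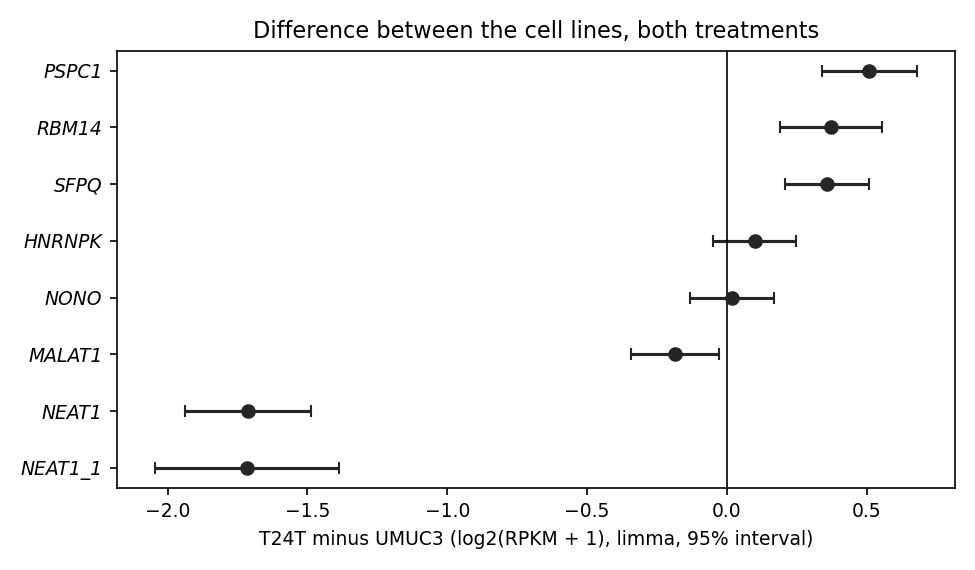
Difference between T24T and UMUC3 (log2(RPKM + 1), limma estimate with 95% interval) for the 8 rows, positive where T24T is higher. NEAT1 and NEAT1_1 lie near −1.7, PSPC1, RBM14 and SFPQ between 0.36 and 0.51, and the intervals of NONO and HNRNPK reach across 0.

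Some members share sequence with other rows. RBM14-RBM4, a readthrough transcript that holds exons of RBM14, stood at 45.5, 47.0, 40.8 and 46.5 RPKM and did not pass between the lines (0.08, limma adjusted p = 0.306), so reads of RBM14 may be split or shared with it. RP11-575L7.8 lies within HNRNPK on the opposite strand and stood at 173, 179, 155 and 167 RPKM. The processed copies HNRNPKP2 (1.57 to 2.60 RPKM), HNRNPKP4 and NONOP2 stood low, and PSPC1P1 reached 8.38 RPKM in T24T vector.

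The genes around the NEAT1 and MALAT1 locus gave a local comparison. The 2 RNAs are 52221 bases apart, and 8 genes within 200 kb had enough reads in both lines, among them POLA2, DPF2, FRMD8, EHBP1L1, MAP3K11, PCNX3 and RELA. With BCUC-1, 6 of the 8 were below their vector level and 2 above it in T24T, with log2 differences such as −0.10 for POLA2 and 0.028 for RELA. In UMUC3 all 8 were above it, from 0.031 (DPF2) to 0.31 (MAP3K11). Of all rows with enough reads, 52.8% were below their vector level in T24T and 45.0% in UMUC3. NEAT1 and MALAT1 were below each of these 8 neighbours in both lines. The 2 RNAs were picked for being lower, so nothing is read from that order. The neighbours hold more GC (51.4 to 64.0%) than the 2 RNAs. With the GC trend removed 4 of the 8 were above their vector level in UMUC3 and 4 below it, the lowest being POLA2 at −0.032, and NEAT1 (−0.036) and MALAT1 (−0.075) were still below that. Between the lines 5 of the 8 were higher in UMUC3 (29.6% of all rows tested), 1 was higher in T24T (40.8%) and 2 did not pass. POLA2 (−0.72), DPF2 (−0.54), RELA (−0.51), PCNX3 (−0.45) and EHBP1L1 (−0.38) were the 5. With only 8 genes, nothing is read from these counts. The upstream neighbour FRMD8 stood at 39.1, 37.3, 12.9 and 14.2 RPKM, 2.82-fold higher in T24T (limma adjusted p = 1.27e-05), the reverse of NEAT1.

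The further factors of paraspeckle assembly were split between the lines. Their counts, and those of the lists after them, are read against the 40.8% and 29.6% of all rows and the median of 0.102 given before. The 5 protein members had a median line difference of 0.36. Of 4 such factors, 2 were higher in T24T, 1 was higher in UMUC3 and 1 did not pass, with a median of 0.19. SMARCA4, the ATPase of the SWI/SNF remodeller, differed by 1.11 (5.34, 5.39, 1.81 and 2.09 RPKM). HNRNPH3 differed by −0.60, at 114 and 118 RPKM in T24T and 179 and 173 RPKM in UMUC3. DAZAP1 differed by −0.05 (limma adjusted p = 0.564).

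The CFIm subunits, which act at the short transcript's end shown above, went 3 ways, with a median of −0.11. CPSF6 was higher in T24T (0.59), CPSF7 was higher in UMUC3 (−0.54) and NUDT21, the subunit that reads TGTA, did not pass (−0.11, limma adjusted p = 0.295). NUDT21 stood at 33.4, 33.0, 39.9 and 32.2 RPKM. It was −0.31 on the log2 scale with BCUC-1 in UMUC3 and −0.015 in T24T.

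Of 27 other proteins found in paraspeckles 26 were tested, and 13 were higher in T24T, 4 were higher in UMUC3 and 9 did not pass. The named ones were the zinc finger protein ZNF24 (1.71), FIGN (1.46), the cold-induced RBM3 (1.10), RBM12 (1.09), SS18L1 (0.71) and AHDC1 (0.61). Their median over the 26 was 0.20, against 0.102 over all rows. With BCUC-1 no row of this list with enough reads was 1.2-fold different in T24T (0 of 22, where 0.937% of all rows were lower and 0.13% higher), and 2 of 20 were lower by that much in UMUC3 (4.39% of all rows).

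Genes for the tRNA-like ends leaned to UMUC3. Among 11 tested, 5 were higher in UMUC3, 1 was higher in T24T and 5 did not pass, with a median of −0.23. The RNase P subunits RPP30 (−0.71), RPP14 (−0.56), RPP40 (−0.40), RPP21 (−0.27) and POP1 (−0.27) were the 5, and POP5 (0.60) was higher in T24T. Among 9 factors of nuclear RNA decay and MALAT1 end stability, 4 were higher in each line and the median was −0.10. SKIV2L2, the exosome helicase, differed by 0.93, EXOSC10 by 0.56 and ZCCHC8 by 0.48, while EXOSC3 (−0.76), ZCCHC7 (−0.72) and DIS3 (−0.39) were higher in UMUC3.

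Nuclear speckle proteins, the surroundings of MALAT1, split as 5 higher in T24T, 3 higher in UMUC3 and 1 not passing among 9, with a median of 0.36. SRSF2, a splicing factor that marks speckles, differed by 0.98 and SON, a speckle scaffold, by 0.92. PNN differed by −0.82, at 191 and 196 RPKM in T24T and 346 and 338 RPKM in UMUC3. SRRM2 (0.60), RNPS1 (0.53) and ACIN1 (−0.49) also passed.

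All 5 listed transcription factors that act on NEAT1 differed between the lines, 3 higher in UMUC3 and 2 higher in T24T, with a median of −0.84. EPAS1, the hypoxia factor HIF-2α, differed by −1.17, and HSF1, the heat shock factor, by −0.84. ATF2 (0.86) and HIF1A (0.32) were higher in T24T.

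Among other long noncoding RNAs with at least 1000 reads over both T24T libraries, none was as far below its vector level as NEAT1 and MALAT1. Nothing is read from that, because NEAT1 and MALAT1 were picked for being lower with BCUC-1. Of 26 listed names, with an alias each for NORAD and LINC00152 among them, 22 were in the table, and 10 had enough reads in the T24T pair. None of the 10 was 1.2-fold lower with BCUC-1 (0.937% of all rows), although 7 were below 0. Their median was −0.046 and their lowest value −0.10 (JPX, a regulator of X inactivation). Of all rows with enough reads, 52.8% were below 0 in T24T, with a median of −0.006, and 45.0% were below 0 in UMUC3. In UMUC3 11 of 13 were below 0, with a median of −0.057 (0.021 over all rows), and NORAD, a cytoplasmic RNA that binds Pumilio proteins, was lowest at −0.24, below MALAT1 (−0.18). With the GC trend removed 6 of the 12 with a GC value were below 0 and 6 above, and ZFAS1 was lowest at −0.21, ahead of NORAD at −0.17. Between the lines 5 of 18 were higher in T24T, 10 were higher in UMUC3 and 3 did not pass, with a median of −0.28. NORAD stood at 164, 158, 47.8 and 40.5 RPKM, a difference of 1.85, and OIP5-AS1 (0.94) and JPX (0.95) were higher in T24T too. LINC00152 (−1.203) and LINC-PINT (−1.33) were higher in UMUC3, as NEAT1 was. H19, an imprinted RNA, was at 6.52 and 4.41 RPKM in T24T and at most 0.0156 RPKM in UMUC3. On fewer reads (436 and 294) it was at 0.677 times the vector level in T24T (0.582 to 0.787), lower than NEAT1, and LINC-PINT, with 44 and 28 reads, was at 0.639 times (0.383 to 1.05).

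Over all these lists, no gene with enough reads was 1.2-fold different with BCUC-1 in T24T, and 4 were lower by that much in UMUC3 (4.39% of all rows). They were RBM7 (−0.39), ZNF24 (−0.33), NUDT21 (−0.31) and POP4 (−0.27). With the GC trend removed they stood at −0.21, −0.15, −0.13 and −0.28 in the same order, so POP4 alone among them stayed past 1.2-fold.

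**Figure D5:**
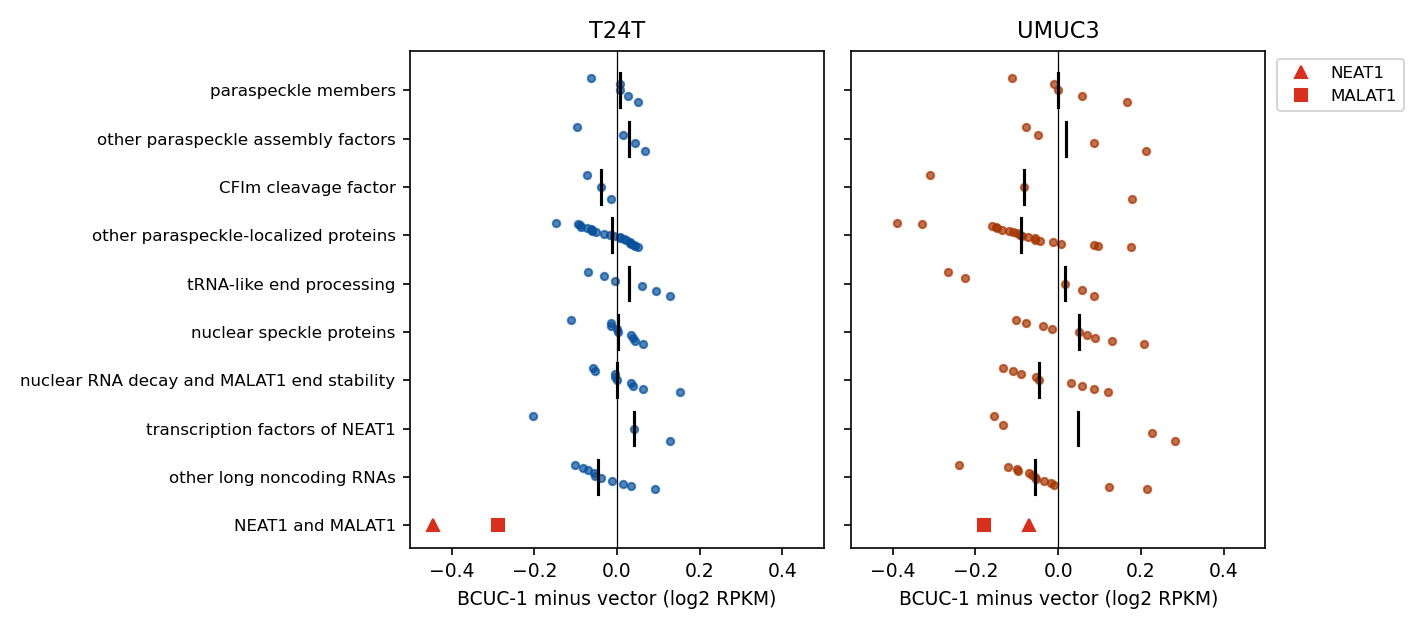
Log2 difference of BCUC-1 minus vector in each line for the listed genes that reach 1000 reads over both libraries of the line; each dot is 1 gene, the black bar is the list's median, and NEAT1 (triangle) and MALAT1 (square) are drawn at the bottom. In T24T both RNAs (−0.44 and −0.29) lie to the left of every dot, and in UMUC3 (−0.07 and −0.18) both lie among the dots. Both RNAs were picked for being lower with BCUC-1.

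The rows with the pattern most like NEAT1 over the 4 libraries were its own windows NEAT1_1 and NEAT1_3, at distances of 0.152 and 0.189 between log2 values centred over the libraries. NFKBIA (0.231), DIS3L (0.236) and OPTN (0.237) came next among 6656 rows with enough reads in both lines. NFKBIA, the inhibitor of NF-κB, stood at 12.8, 11.5, 38.2 and 39.6 RPKM, high in UMUC3 like NEAT1. Closest to MALAT1 were RNPC3 (0.0706), a protein of the minor spliceosome, PHC3 (0.0741), a Polycomb protein, and AP000769.1 (0.0831), followed by GPX8 (0.0867) and POLK (0.0929). RNPC3 stood at 5.03, 4.06, 5.22 and 4.61 RPKM, lowest in T24T BCUC-1 as MALAT1 was. With 4 libraries such likeness is a description only.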

How the data were processed

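The authors deposited 1 table of RPKM per gene and library with a Length column in bases, per the file headers. Per the submitters' processing notes Bowtie 0.12.2 was among the tools, and its role, the build, the annotation and the strand setting were not given in the sources used here. RPKM times length gave whole reads for 100% of rows within 0.001 reads, which gave the depths. Coordinates matched GRCh38.

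Within a line, RPKM ratios with exact Clopper-Pearson 95% intervals (counting error only, since reads are not independent molecules) were computed, and 1.2-fold was the bound for rows that reach 1000 reads over both libraries. The lines were compared with limma 3.58.1 (R 4.3.3, intensity trend, two-sided, Benjamini-Hochberg) on log2(RPKM + 1) of rows with at least 1 RPKM in 2 libraries, and the fit was tested on simulated data. The GC trend is the median in 20 bins of rows matched to GENCODE 29 (92.5% in T24T). Named genes were the members, rows inside NEAT1 or MALAT1, neighbours within 200 kb, FNDC3B, up to 6 genes a list by line difference, and the 5 nearest patterns. Rows that overlap or copy a protein member, RBM7 and other genes outside this rule were named after their values were seen. Mitochondrially encoded genes took part in the depths. Members and lists were chosen with earlier results of these data known. Some genes that the rule names are not reported here.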

Additional observations from a re-analysis of the deposited data

Results flagged for a closer look

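All 3 window rows inside NEAT1 were lower with BCUC-1 in T24T and higher with BCUC-1 in UMUC3, each with a counting interval clear of 1. The UMUC3 log2 difference exceeded that of T24T by 0.589 for NEAT1_1, by 1.05 for NEAT1_2 and by 0.437 for NEAT1_3. The neighbouring gene EHBP1L1 did the same with a gap of 0.245, at 0.942 times the vector level in T24T (0.903 to 0.983) and 1.12 times in UMUC3 (1.08 to 1.16). With the GC trend removed EHBP1L1 was at −0.023 in UMUC3. Rows of the GC content of NEAT1_1 and NEAT1_3 had median log2 differences of 0.14 and 0.13 in UMUC3, near those of the windows themselves (0.14 and 0.11). The GC of a window's bases and that of a whole transcript are unlike measures. NEAT1_2 was at 0.42, against −0.036 for rows of its GC content. With 1 library a group the difference between the lines was not tested for any of the 4.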

How the results depend on the processing

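No paired analysis was possible because each group held 1 library, so replicate 1 is only a name. With 1 library a group, counting error is the only error known for the BCUC-1 values. In T24T 72 rows were 1.2-fold lower, 36 on log2(RPKM + 1), 7573 of 29114 with no filter on low values, and 0 at 1.5-fold and at 2-fold, where the count of members was 0 too. In UMUC3 328 rows were lower, 90 with the GC trend removed, 6746 of 29291 with no filter, 6 at 1.5-fold and 0 at 2-fold. Between the lines 10847 rows passed limma, and 6780 of 8830 with a floor of 5 RPKM. Leaving out 1 library in turn gave 7797 to 10296 rows and 3 to 5 members in place of 6, with 3 without T24T vector. NONO turned sign between the lines, to −0.079 with equal medians and −0.0094 without UMUC3 vector (up to 0.048 when another library was left out). The cause was not tested. Of the other values for single genes 160 kept their side of the test's threshold or, where untested, stayed within their 95% interval (NONO went below 0 in 2 of these, at −0.0071 in T24T with the GC trend removed and −0.0058 between the BCUC-1 libraries alone), 10 moved, 10 lost a call and 2 gained one.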
